A study of Mus musculus with 2 samples.

Results

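The Fos and Jun family genes (Fos, Fosb, Fosl1, Fosl2, Jun, Junb and Jund) were compared between the hypothalamus of Crtc1 knockout mice and that of wild-type mice. The members were the 7 genes by name, and the platform annotation of the Mouse Genome 430 2.0 array paired 11 probe sets with one of them alone, of 45037 probe sets that are not the manufacturer's controls. Jun, Jund, Fosl1 and Fosl2 had 2 probe sets each, and the other members 1. No member probe set was shared with another gene. Each genotype was 1 array, hybridised with RNA pooled in equal amounts from the hypothalami of 3 mice. All animals were males aged 12 weeks whose food was withheld for 18 h and then returned for 6 h, so wild-type and knockout pools shared that regimen. The labels name the knockout only as Crtc1 KO. Neither the mouse strain nor the construction of the allele is stated, nor whether the controls were littermates. The protein made from Crtc1 helps the transcription factor CREB to switch on its targets, and the series title concerns its part in energy balance and fertility.

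Fos and Jun proteins form the transcription factor AP-1, a dimer joined by leucine zippers. Fos proteins mostly pair with a Jun protein, whereas Jun proteins can also pair with each other or with ATF proteins. In neurons Fos, Fosb and Junb are classic immediate early genes. Firing, calcium and cyclic AMP switch them on within minutes through CREB and serum response factor, and Fos is widely used to mark active neurons, in feeding circuits of the hypothalamus among others. Jund is the more constantly expressed member of its family.

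The bases in front of the Fos, Fosb, Junb and Jun start sites are shown because CREB, the partner of Crtc1, binds the cyclic AMP response element (CRE), TGACGTCA, whose core is TGACG. Exact matches were sought on both strands in the 250 bases before each start in the RefSeq promoter table of GRCm38.p6, which held 6 of the 7 members. Fosl1 had no entry. In the following sequences of 150 bases, each written 5′ to 3′ on the gene's strand and ending at the last base before the start, capitals mark every match.
Fos: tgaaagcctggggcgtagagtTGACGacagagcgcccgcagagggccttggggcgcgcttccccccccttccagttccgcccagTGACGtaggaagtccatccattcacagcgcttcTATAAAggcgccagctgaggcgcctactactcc
Fosb: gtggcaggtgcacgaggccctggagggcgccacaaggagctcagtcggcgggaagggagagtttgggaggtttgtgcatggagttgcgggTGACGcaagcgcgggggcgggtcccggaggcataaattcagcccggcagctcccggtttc
Junb: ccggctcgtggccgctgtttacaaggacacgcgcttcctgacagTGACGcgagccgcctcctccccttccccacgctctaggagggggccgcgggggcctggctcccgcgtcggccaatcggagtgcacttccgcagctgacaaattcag
Jun: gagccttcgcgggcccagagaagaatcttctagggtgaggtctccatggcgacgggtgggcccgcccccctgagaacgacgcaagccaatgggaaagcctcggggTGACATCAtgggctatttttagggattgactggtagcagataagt

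The Fos stretch lies at chr12:85473740-85473889 on the plus strand, and the others at chr7:19310046-19310195 for Fosb, chr8:84978749-84978898 for Junb and chr4:95052223-95052372 for Jun, all on the minus strand. Fos held the CRE core at 129 and at 66 bases before its start, with a TATA box (TATAAA) at 33. Fosb held the CRE core at 60 bases and Junb at 106. Jun held the ATF-type AP-1 site TGACATCA at 45 bases and no CRE core. Fosl2 and Jund had no match to any of the 6 motifs in their 250 bases. No member had the whole CRE, the AP-1 site TGAGTCA or a serum response element in this window, which says only that these letters are not within it. Of 32851 promoters in the table, 17.8% held the CRE core, 1.55% the whole CRE, 2.93% the ATF-type site, 4.46% the AP-1 site, 12.4% the TATA box and 1.47% a serum response element. The whole CRE contains the core, so those shares overlap. A match is a description of the sequence and not a shown binding site.

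**Figure D1:**
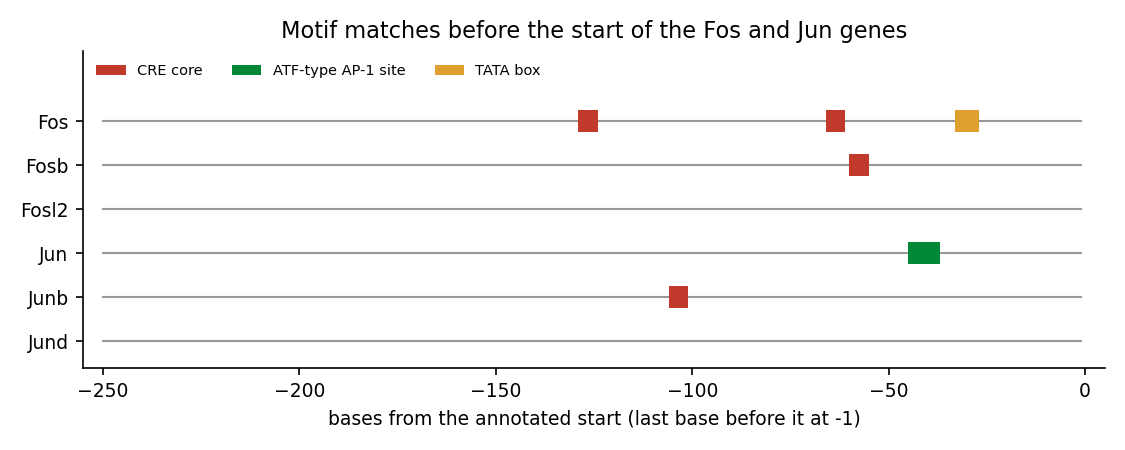
Positions of exact motif matches in the 250 bases before the annotated start of the 6 members found in the RefSeq promoter table (x axis, bases from the start; each line is 1 gene, each box 1 match). Fos has 2 CRE cores and a TATA box, Fosb and Junb 1 CRE core each, Jun 1 ATF-type AP-1 site, and Fosl2 and Jund none.

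The deposited values are linear signal intensities per probe set. Signals at or under the 30th percentile of an array (20.2 for the wild-type pool, 20.5 for the knockout pool) were treated as at the floor, and a probe set was called measured if its log2 signal, averaged over the pools, reached the median of all probe sets, 5.71. This left 7 of the 11 member probe sets, from 6 of the 7 genes. With 1 array per genotype there is no replicate, no test was possible and no p-value is given. Nor could a change in the number of expressing cells be told apart from one in RNA per cell. The error given here is the array error, the SD of the differences of measured probe sets around the mean for their gene. It was taken by range of the probe set's own signal and holds no spread between mice.

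Crtc1 itself was lower in the pool labelled knockout by both of its measured probe sets. Its signal, knockout against wild type, was 85.1 against 631 by 1434476_at, 7.42-fold lower, and 31.5 against 209 by 1458443_at, 6.64-fold lower. The sources used here do not say whether these probe sets cover the altered sequence. Of 17 hypothalamic marker genes 16 had a probe set of their own and 12 were measured, among them Pomc, Npy, Avp and Oxt, while Crh, Nkx2-1, Sim1 and Ghrh were too dim. Their summed signal was 11393 in the wild-type pool and 11142 in the knockout pool, although single markers moved apart: 5 were higher and 7 lower in the knockout pool, with a median of -0.09. Cartpt was 1.76-fold lower and Gal 1.41-fold lower, while Avp was 1.47-fold higher and Oxt 1.39-fold higher. The 8 pan-neuronal markers had a median log2 difference of -0.02. None of the 5 pituitary markers with a probe set was measured, and Prl and Cga were at the floor in both pools. Choroid plexus markers were lower in 7 of 8 (median -0.34, summed signal 8610 in the knockout against 9707 in the wild type) and microglial markers higher in 6 of 8 (median 0.23, 4080 against 3538). These sums rest largely on their brightest genes, Ttr (7745.0 against 8570.7) for choroid plexus and Csf1r (2000.5 against 1710.8) for microglia. Markers of cortex and hippocampus were higher in 5 of 8 (median 0.15, 3358 against 2932, of which Wfs1 gave 1355.0 and 1023.2). Those of striatum were higher in 4 of 5 (median 0.13) and those of thalamus in 5 of 6 (0.08). Astrocyte markers were higher in 5 of 7 (0.07) and endothelial ones in 4 of 6 (0.07), but myelin markers in only 2 of 5 (-0.05). Apart from the pituitary ones, none of these markers was at the floor in both pools. The part of these cell types in the differences of the Fos and Jun genes was not tested. The actin control read 1.47 times as bright at its 3′ end as at its 5′ end in the knockout pool and 1.25 times in the wild-type pool, and the Gapdh control 0.863 and 0.873 times, ratios that follow RNA integrity. The other controls of this kind went opposite ways: the ratio for pyruvate carboxylase was higher in the knockout pool (2.60 against 1.68) and that for the transferrin receptor lower (3.85 against 5.87).

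No measured Fos or Jun probe set differed by as much as 1.5-fold between the pools. The furthest apart was Fos, which was lower in the knockout pool, and it was also the one measured probe set whose difference was larger than 1 array error. The share of all measured probe sets past 1 array error was not counted, so this does not set Fos apart from the background. All 3 measured Fos family genes and Junb read lower, and Jun and Jund slightly higher, although Jun was at -0.00 with median centring of the arrays. Of all measured probe sets paired with 1 gene, 4.44% differed at least 1.5-fold, so a count of 0 among 7 is near that background. At 1.2-fold, 1 of the 7 member probe sets passed, against 25.7% of all. The median difference of the 6 measured genes was -0.15, beside 0.00 over 11312 measured genes, of which 49.0% were lower in the knockout pool. It was -0.07 without the filter on dim probe sets and 0.06 with the filter at the 70th percentile, which kept only Fos, Jun and Jund.

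Fos, whose protein is the prototype of the family, read 208.7 in the wild-type pool and 160.8 in the knockout pool by its single probe set, 1423100_at. The log2 difference, knockout minus wild type, was -0.38 with an array error of 0.26. The signal was thus 1.30-fold lower in the knockout pool, by 1.4 times that error, and there was no replicate pool to set it against. In its range of signal, mean log2 7 to 8, 13% of measured probe sets were at least 1.2-fold lower. Among all measured genes 4.82% had a lower difference than Fos. Its value lay between -0.44 and -0.35 under the 10 alternative settings. Only median centring, quantile normalization, loess and the pseudocount could change it, and it stayed lower under each of these. The other settings could not move the value of this single probe set, so they say nothing about its direction.

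Fosb, the other Fos family member with strong induction in active neurons, was dim. Its signal was 55.9 in the wild-type pool and 53.3 in the knockout pool by 1422134_at, a difference of -0.07 with an array error of 0.32. The readings of both pools were therefore alike within the error. Its mean log2 signal of 5.77 was just above the limit of 5.71, and it was not measured with a floor at the 50th percentile or a filter at the 70th.

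Fosl2 encodes Fra-2, a Fos protein that lacks the strong activation domain of Fos. By its brighter probe set, 1437247_at, it read 129.4 in the wild-type pool and 110.2 in the knockout pool, which is 1.17-fold lower in the latter (-0.23, array error 0.32). The dimmer probe set 1422931_at read 57.8 and 40.2, in the same order, or 1.44-fold lower in the knockout (-0.52), at a mean log2 signal of 5.59, just under the limit for a measured probe set. Both probe sets thus read lower in the knockout pool. The size from the dimmer one depended on the treatment of dim signals, since with a floor at the 50th percentile it was -0.09.

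Fosl1, which encodes Fra-1, was not measured by either probe set. Probe set 1417487_at read 19.6 in the wild-type pool and 17.0 in the knockout pool, under the floor of each array. Probe set 1417488_at read 28.7 in the knockout pool, a little above the floor, and 3.6 in the wild-type pool, under it. The deposited signals of the latter are far apart, but the wild-type reading carries only a bound, the probe set did not pass the limit for a measured one, and no fold is given. Its log2 difference ran from 0.06 with a floor at the 50th percentile to 2.88 with a floor at the 10th, so it has no settled size.

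**Figure D2:**
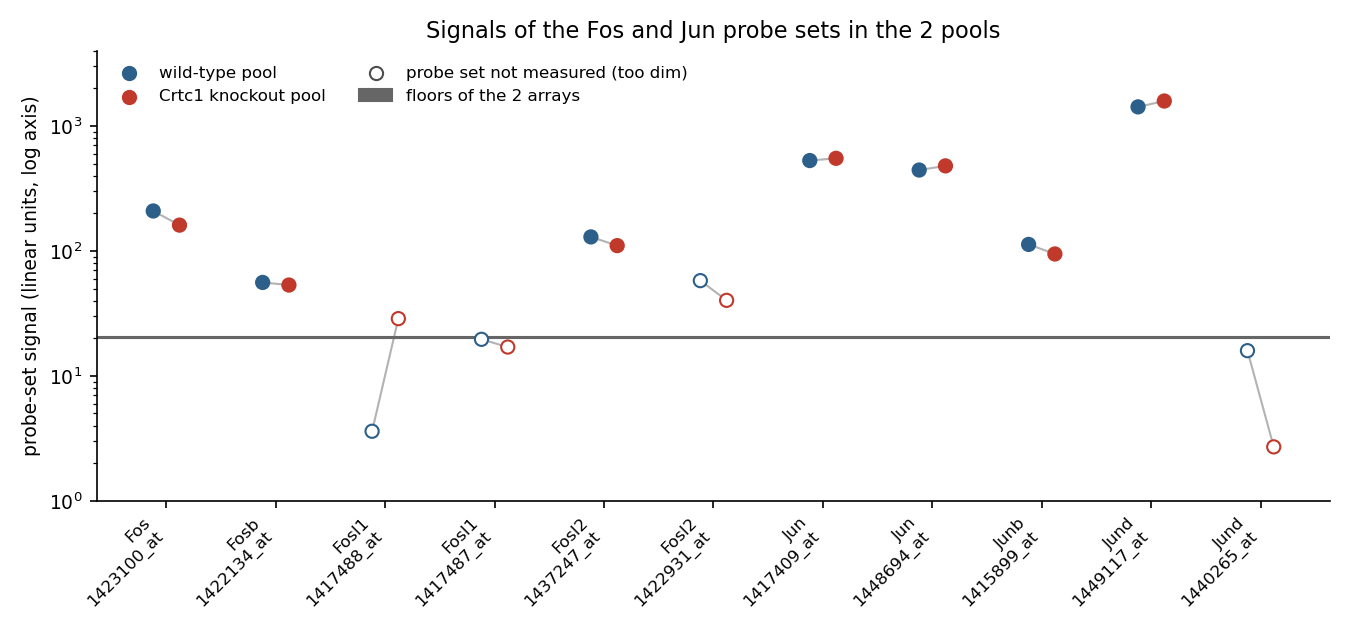
Deposited signal of each of the 11 Fos and Jun probe sets (y axis, linear units on a log axis) in the wild-type pool and the Crtc1 knockout pool, with 1 array per pool; open circles are probe sets too dim to be called measured, and the grey line marks the floors of 20.2 and 20.5. The steep lines belong to dim probe sets of Fosl1 and Jund with a reading under the floor.

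Jun, a partner that Fos proteins can use, had the one pair of measured probe sets in the family. The signal of 1417409_at was 528.7 in the wild-type pool and 550.9 in the knockout pool, and that of 1448694_at was 443.9 and 479.2. The differences were 0.06 and 0.11, with array errors of 0.21 and 0.23. These repeat readings of the same pools were 0.05 apart, and both lay within the array error. The brighter one was -0.00 with median centring, while 1448694_at stayed between 0.05 and 0.12 in the alternative settings that measured it. With differences this small, Jun had no settled direction.

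Junb, an early response member that can restrain Jun, read 112.7 in the wild-type pool and 94.5 in the knockout pool by 1415899_at. It was 1.19-fold lower in the latter (-0.25), within its array error of 0.32. Its difference was thus close to those of Fosl2 and Fos. It lay between -0.31 and -0.22 in the settings that measured it.

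Jund, the more constant member of the Jun family, had the smallest array error, which falls as the signal rises. By 1449117_at its signal was 1421.6 in the wild-type pool and 1583.9 in the knockout pool, 1.11-fold higher in the latter (0.16, array error 0.16). The pools therefore differed by just under 1 array error, and the value stayed between 0.10 and 0.17 under the alternatives. Its other probe set, 1440265_at, read 15.9 and 2.7, both under the floor, and gives no direction.

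Jund and Junb lie on chromosome 8, as does Crtc1. In the order of protein-coding genes in assembly GRCm38.p6, Jund is 15 genes from Crtc1 and Junb 179. Of the 14 genes between Crtc1 and Jund 8 were measured, with a median difference of -0.11 and a range of -0.63 to 0.41, and 1 was at least 1.5-fold lower and 0 higher. Of all measured genes 3.5% differed at least 1.5-fold, 1.44% lower and 2.06% higher. The value of Jund, 0.16, lay inside the wide range of these neighbours and was opposite in sign to their median. Whether its place near Crtc1 plays a part was not tested. The other members lie on chromosomes 12 (Fos), 7 (Fosb), 19 (Fosl1), 5 (Fosl2) and 4 (Jun).

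**Figure D3:**
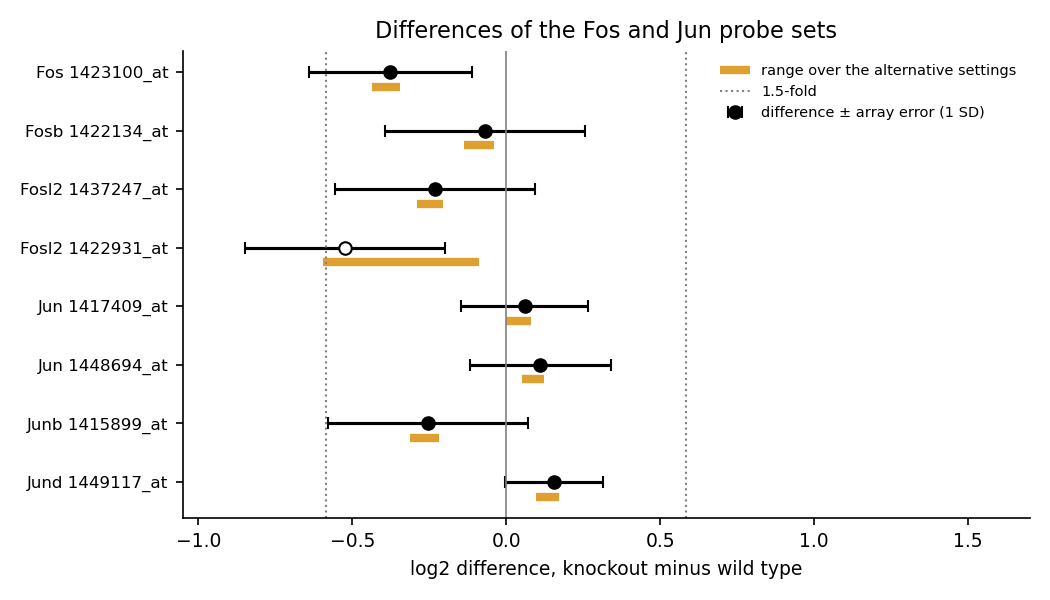
Log2 difference, knockout minus wild type (x axis), of the 8 Fos and Jun probe sets above the floor in both pools, with the array error of 1 SD as black bars and the range over alternative settings in orange; the open circle is a probe set not called measured and dotted lines mark 1.5-fold. Among the measured probe sets the bar of Fos alone stays clear of 0, but a bar of 1 SD is no test.

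The differences of the measured members ran from -0.38 for Fos to 0.16 for Jund. Of the 15 pairs of measured genes, 4 had differences further apart than their array errors combined. These were Fos and Jund (-0.38 against 0.16), Fos and Jun (-0.38 against 0.06), Junb and Jund (-0.25 against 0.16) and Fosl2 and Jund (-0.23 against 0.16). Each of these pairs sets a member that read lower in the knockout pool against Jun or Jund. No pair among Fos, Fosb, Fosl2 and Junb was further apart than its combined array error. That error is an SD, so passing it is no test. The share of pairs of other measured genes that pass was not counted, so the 4 pairs are not set apart from the background. The pairs also reuse the same genes and are not independent of each other. By family the median differences were -0.23 for the 3 measured Fos genes and 0.06 for the 3 measured Jun genes, with Junb closer to the former. With 2 arrays any pair of genes correlates perfectly, so no other gene is named for a pattern like that of a member.

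**Figure D4:**
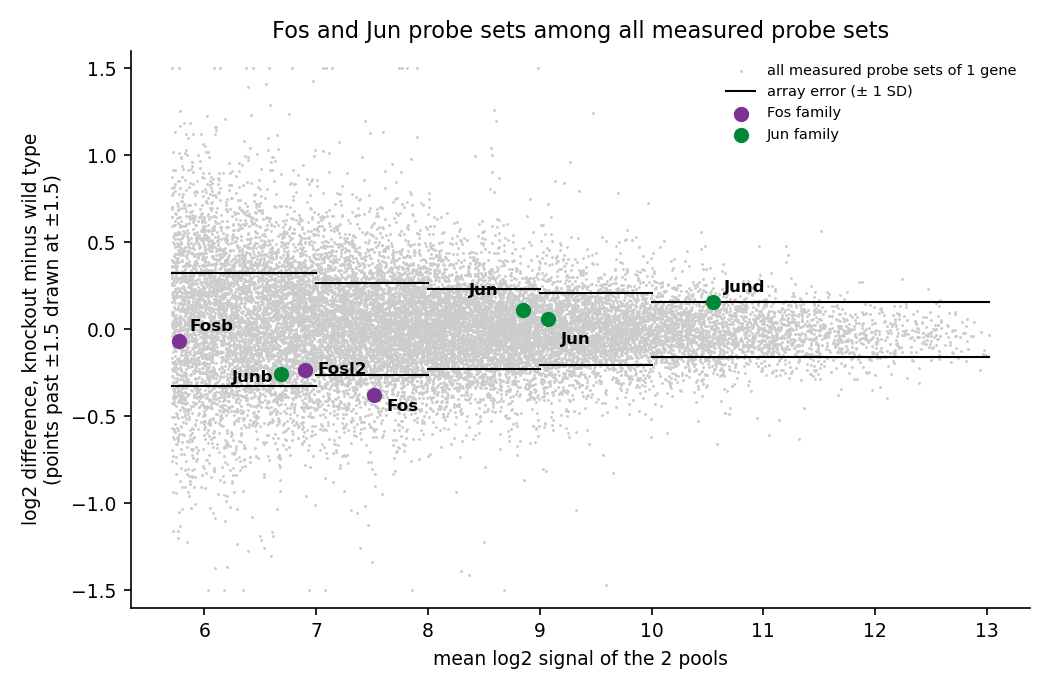
Log2 difference, knockout minus wild type (y axis), against the mean log2 signal of both pools (x axis) for 19814 measured probe sets paired with 1 gene (grey), with the measured Fos family (purple) and Jun family (green) probe sets and the array error of 1 SD in each range of signal (black lines). Fos lies below the lower line and the other members lie on or between the lines.

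Genes around AP-1 were described by lists of dimer partners, upstream kinases, factors at the Fos promoter, factors that limit AP-1, other early response genes and AP-1 target genes. Of 100 measured genes on these lists 5 (5%) differed at least 1.5-fold, 2 higher and 3 lower, against 3.5% of all measured genes, and their median was 0.02. The medians of the 6 lists ran from -0.05 to 0.04, beside 0.00 over all measured genes, and each changed sign under at least 1 alternative setting. In the accounts of single genes that follow, signals are given as knockout against wild type. In all 233 measured genes were at least 1.5-fold higher and 163 lower. That split turned with the scaling, to 165 and 229 with median centring, 186 and 197 with quantile normalization and 183 and 197 with loess.

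Among 10 measured dimer partners 5 were higher and 5 lower, with a median of 0.02. Atf7, which encodes an ATF protein able to pair with Jun, read 48.4 against 84.1, 1.74-fold lower (-0.80, array error 0.32), and passed 1.5-fold as the only member of the list. With the filter at the 70th percentile Atf7 was not measured and the count was 0, and without a filter it was 3. Mafk, a small Maf protein gene, was 1.39-fold lower, and Nfe2l2, which encodes the oxidative stress factor Nrf2, was 1.37-fold higher. The last read 264.2 against 193.3.

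Of 19 measured upstream kinase genes 12 were higher and 7 lower, with a median of 0.04. Mapk7, which encodes the kinase ERK5, read 92.3 against 142.4, 1.54-fold lower (-0.63, array error 0.32), and was under 1.5-fold with a pseudocount of 16 (-0.55). The list's count of 1 became 0 with that pseudocount, and also with the filter at the 70th percentile or without _s_at, _x_at and _a_at probe sets, where Mapk7 was not measured. Mapk12, a p38 kinase gene, was 1.29-fold higher. Mapk8, which encodes the Jun kinase JNK1, was 1.22-fold lower by the brightest of 5 measured probe sets, which did not all share a sign.

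The genes of factors that act at the Fos promoter and of their coactivators stood at a median of 0.02, with 9 of 15 higher and 6 lower, and 0 passed 1.5-fold. Elk4, a partner of serum response factor, was 1.32-fold higher by the brighter of its probe sets, yet differed by -0.30 on the log2 scale without it. Mrtfa, a coactivator of serum response factor, read 438.6 against 563.3, 1.28-fold lower (-0.36, array error 0.23). Crtc2, a paralog of Crtc1, was 1.17-fold lower.

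Phosphatases, ubiquitin ligases and mRNA decay factors that limit AP-1 had a median of -0.05, with 7 of 16 higher, 9 lower and 0 past 1.5-fold. Khsrp and Zfp36l1 encode proteins that promote the decay of AU-rich mRNAs such as that of Fos. They were 1.32-fold lower each by their brightest probe sets, but other probe sets of both genes pointed the opposite way, and the means over probe sets were -0.01 and -0.19. Det1, part of a ubiquitin ligase that acts on Jun, was 1.26-fold lower (-0.33, array error 0.32).

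The other early response genes went both ways. Of 28 measured genes 17 were higher and 11 lower, with a median of 0.03, while 2 were at least 1.5-fold higher and 1 lower. That count of 3 fell to 1 with a pseudocount of 16, with the mean of a gene's probe sets and with the filter at the 70th percentile, and was 5 without the filter. Plk3, a stress-responsive kinase gene, read 94.0 against 57.2, 1.64-fold higher (0.72, array error 0.32). Egr3, a zinc-finger early response factor, was 1.52-fold higher (0.60), but under 1.5-fold with median centring (0.54), with a pseudocount of 16 (0.58) and by the mean of its 2 probe sets (0.52). Gadd45b, a stress-induced gene, was 1.53-fold lower by the brighter of probe sets with opposite signs, and their mean was -0.22. The list thus held differences of both signs that were larger than that of Fos.

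Among textbook AP-1 target genes 14 were measured, 6 higher and 8 lower, with a median of -0.02 and 0 past 1.5-fold. Nts, the neurotensin gene, read 312.0 against 223.0, 1.40-fold higher (0.48, array error 0.23). Cd44, a hyaluronan receptor gene, was 1.27-fold lower by the brighter of its probe sets, with a mean of 0.18 over both. Pdyn, the dynorphin precursor gene, was 1.22-fold lower, within its array error (-0.28 against 0.32).

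**Figure D5:**
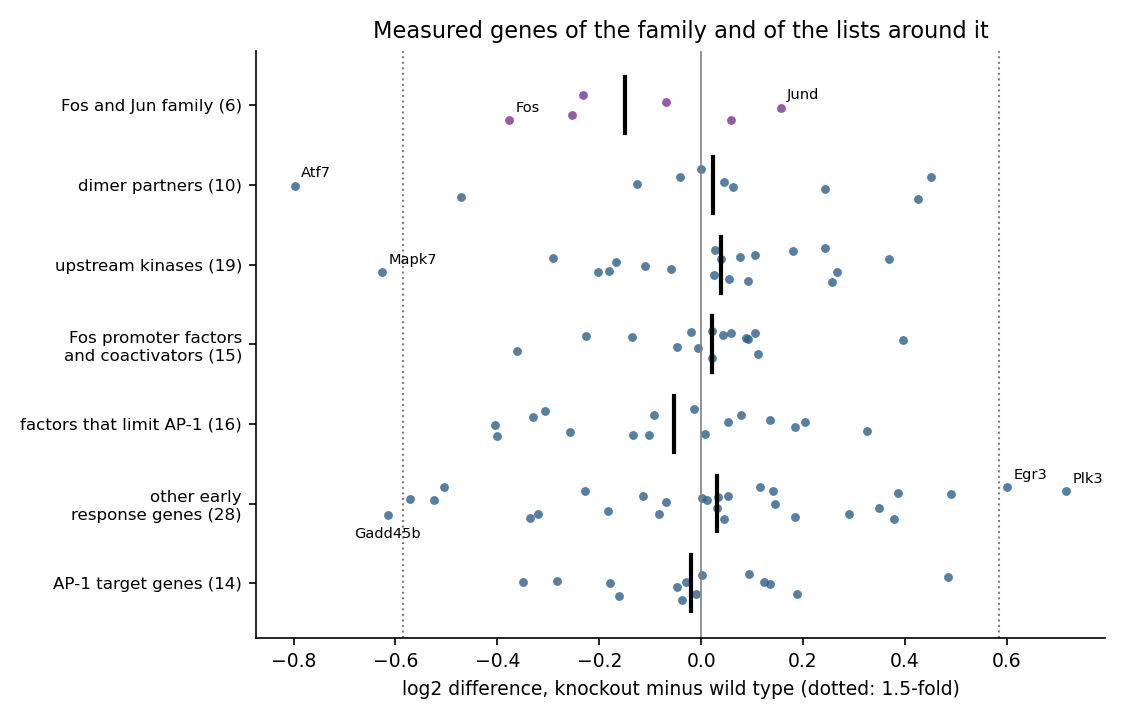
Log2 difference, knockout minus wild type (x axis), of each measured gene in the Fos and Jun family and in 6 lists around AP-1 (rows, with the number of measured genes), by the brightest measured probe set; black bars are medians and dotted lines mark 1.5-fold. The medians lie between -0.15 for the family and 0.04 for the upstream kinases, and 5 genes lie past 1.5-fold.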

How the data were processed

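Hypothalamic RNA of 1 pool per genotype was measured on 1 array each. The deposited table holds linear signal intensities per probe set, and the sources used here do not name the algorithm that summarised the probes. Trimmed of the outer 2% at each end, the mean signal was 200.0 on both arrays, while the medians were 54.4 (knockout) and 52.2 (wild type). Each array therefore appears to have been scaled by a factor, a step inferred from these values alone.

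Signals were floored at each array's 30th percentile and put on the log2 scale without rescaling. Of 45037 probe sets, 34945 were paired with 1 gene, and symbols were updated by Entrez ID through RefSeq GRCm38.p6. A gene took its brightest measured probe set, and differences are knockout minus wild type. The array error was 0.32 below a mean log2 signal of 7, then 0.26, 0.23 and 0.21 per step of 1, and 0.16 from 10 upward. Signal and the number of arrays limit the precision. Python 3.11.15, pandas 2.3.3 and statsmodels 0.14.6 were used, and the calculations were tested on simulated data. Named genes were all members, Crtc1 and up to 3 genes per list with the largest difference. The marker genes named were outside that rule, and Cartpt, Avp, Gal and Oxt had the largest differences of the hypothalamic markers. Members and lists were chosen with earlier results of these data known, so no direction here is independent evidence.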

Additional observations from a re-analysis of the deposited data

How the results depend on the processing

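The 10 alternatives were median centring, quantile normalization, loess with a span of 0.3, a lower (10th percentile) and a higher (50th percentile) floor, a pseudocount of 16, leaving out the filter, a stricter filter at the 70th percentile, averaged probe sets, and leaving out probe sets that can match several transcripts. The family median of -0.15 was 0.059 with the filter at the 70th percentile, which kept 3 members, Fos, Jun and Jund. In the other 9 it lay from -0.23 to -0.07. The count of measured family probe sets past 1.5-fold was 0 in each alternative that gives one. The number of all genes past 1.5-fold, 396, was 234 with the pseudocount, 1301 without the filter and 94 with the filter at the 70th percentile. No paired analysis was possible because each genotype has 1 array, and leaving out a replicate was not possible for the same reason. Low signal limits Fosl1, Fosb and the dimmer probe sets of Fosl2 and Jund.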
